A study of Mus musculus with 6 samples.

Results

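The 9 genes described here encode TNF, its receptors, and proteins of the NF-kappaB pathway that TNF drives and that feed back on it: Tnf, Tnfrsf1a, Tnfrsf1b, Nfkbia, Nfkbiz, Tnfaip3, Birc3, Relb and Ikbke. They were taken by symbol from the 32285 genes of the deposited gene lists, and all 9 were found. Single cells came from pancreatic orthotopic tumours that wild-type C57BL/6 mice grew after injection of KPC cells, a mouse pancreatic cancer line. Before injection the KPC cells had received either the vector alone (OE-Vector) or MLKL for overexpression (OE-MLKL), the pseudokinase that ruptures the plasma membrane in necroptosis. The promoter of the construct, the number of clones in each line and the age of each tumour-bearing mouse were not in the labels. Count matrices of 4 of the 6 labelled libraries were used, namely OE-Vector 1 and OE-MLKL 1, 2 and 3, and those of OE-Vector 2 and 3 were not analysed here.

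TNF is a cytokine that myeloid cells and activated T cells release. It binds TNFR1, which most cells carry, and TNFR2, which is found mainly on leukocytes, and receptor binding activates the IKK kinases. IKK marks IkappaB-alpha for degradation, NF-kappaB dimers enter the nucleus, and they induce inflammatory genes together with genes that end the signal, among them the gene of IkappaB-alpha itself. The transcripts of these inhibitors are therefore widely used as a readout of recent NF-kappaB activity, although other inputs such as Toll-like receptors and IL-1 act through the same kinases.

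The libraries held 150591289 to 169978362 UMIs, molecular tags that count each captured transcript once, and 15382 to 23063 barcodes passed as cells. Marker gates that used no member gene assigned 5083 to 8223 cells per library to neutrophils, 2031 to 3186 to macrophages, 44 to 188 to dendritic cells, 565 to 941 to T cells and 2871 to 8143 to cancer cells. The neutrophil markers summed to between 78811 and 87606 CPM (UMIs scaled to the same total) in neutrophils and to between 329 and 1371 CPM in the other classes. Each class in every library had the highest sum for its own markers. The gates were set on these same markers, so this order follows from them and is not separate evidence of identity. In OE-MLKL 1, 4040 of 7137 cancer cells held under 2 times the marker share of the gate, against 263 of 2871 in OE-Vector 1. Between 73 and 134 cell barcodes were shared by a pair of libraries, at most 0.741% of either. Mlkl in cancer cells stood at 16.5 CPM in OE-Vector 1 and at 8.61, 12.8 and 19.7 CPM in OE-MLKL 1, 2 and 3, so the overexpression was not seen in the counts. The study's methods name mouse MLKL as the overexpressed gene. Whether transcripts of the construct would be counted at the Mlkl gene is not given in the sources used here, and the groups are named below by their labels only.

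NF-kappaB binds sequences of the form GGGNNNNNCC, where N is any base, and promoters are shown for 3 members: the ligand gene and the genes of the inhibitors IkappaB-alpha and A20. Each line is 300 bases of RefSeq sequence (build GRCm38.p6), from 250 bases before to 50 after the annotated start, printed 5′ to 3′ on the strand of the gene, with every match to GGGNNNNNCC on either strand in capitals. All 3 genes lie on the minus strand, Tnf at chr17:35201958-35202257, Nfkbia at chr12:55492598-55492897 and Tnfaip3, for the more upstream of its 2 starts, at chr10:19015361-19015660.
Tnf: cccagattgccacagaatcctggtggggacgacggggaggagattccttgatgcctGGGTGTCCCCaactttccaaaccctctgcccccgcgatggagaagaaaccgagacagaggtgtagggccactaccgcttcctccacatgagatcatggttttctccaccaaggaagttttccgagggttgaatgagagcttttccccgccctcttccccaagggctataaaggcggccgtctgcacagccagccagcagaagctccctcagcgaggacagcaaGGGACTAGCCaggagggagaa
Nfkbia: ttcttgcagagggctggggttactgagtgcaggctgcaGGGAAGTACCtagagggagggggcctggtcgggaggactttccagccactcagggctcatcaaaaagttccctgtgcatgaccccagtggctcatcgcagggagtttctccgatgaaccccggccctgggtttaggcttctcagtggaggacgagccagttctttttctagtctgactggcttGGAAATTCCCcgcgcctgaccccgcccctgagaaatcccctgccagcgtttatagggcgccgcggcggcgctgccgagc
Tnfaip3: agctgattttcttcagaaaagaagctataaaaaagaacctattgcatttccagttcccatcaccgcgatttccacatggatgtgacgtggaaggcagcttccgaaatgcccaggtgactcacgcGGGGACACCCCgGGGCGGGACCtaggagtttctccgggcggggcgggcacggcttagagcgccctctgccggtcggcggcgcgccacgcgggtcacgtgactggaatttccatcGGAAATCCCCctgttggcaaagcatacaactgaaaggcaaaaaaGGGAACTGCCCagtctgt

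In the Tnf window the matches began 194 bases before the start and 30 after it. The Nfkbia window held GGAAATTCCC 29 bases before the start and a further match at 212 bases. In the Tnfaip3 window matches overlapped in several places, and GGAAATCCCC lay 12 bases before the start. Of the 7 members with a promoter entry, 6 held at least 1 match, as did 16686 of all 32851 promoters of this length, or 50.8%. Ikbke held none, and Nfkbiz and Relb had no entry. A match to so short a motif is a description of the letters, not evidence of a bound site.

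Neutrophils held the highest mean level of 7 of the 9 members, and cancer cells or dendritic cells the lowest mean level of 7. All levels are CPM of the UMIs summed over the cells of a class in a library, and they were compared between classes within each gene. CPM is a share of the UMIs and not an amount per cell. Median depth was 742 to 1431 UMIs in neutrophils and 12328 to 25864 in cancer cells. At these unequal depths a Tnfrsf1a UMI was found in 69.9% to 76.3% of cancer cells and in 16.8% to 34.8% of neutrophils. The order per cell can therefore differ. Against macrophages, 7 members were higher in neutrophils and 1 was lower (edgeR's quasi-likelihood test with library as a block, adjusted over all 13823 genes tested). In the same comparison 69.3% of all genes were called in either direction, so that differing between classes was itself no mark of these genes. Neutrophils were higher in 8 members and lower in 1 against dendritic cells (56.9% of all genes called), higher in 7 and lower in none against T cells (71.3%), and higher in 8 and lower in none against cancer cells (80.8%). Macrophages were higher than dendritic cells in 6 members and lower in 1 (35.1%), and the same counts, 6 and 1, held against T cells (59.3%). Against cancer cells macrophages were higher in 8 members (68.6%), dendritic cells in 6 with 1 lower (54.4%), and T cells in 6 with 1 lower (64.8%). Dendritic cells were higher than T cells in 2 members and lower in 4 (34.2%). In all, 74 of 90 comparisons of a member between 2 classes passed, and none of the 74 changed sign under another setting. With DESeq2 size factors in place of TMM the median of all genes in the neutrophil contrasts moved up by 0.15 to 0.25 on the log2 scale, and that shift bears on the smaller neutrophil differences named below. The 15 dissociation stress genes, which are also rapidly induced, were highest in neutrophils as well, with sums of 16699 to 22223 CPM against 3154 to 13988 CPM in the other classes, and their part in the class differences was not tested.

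**Figure D1:**
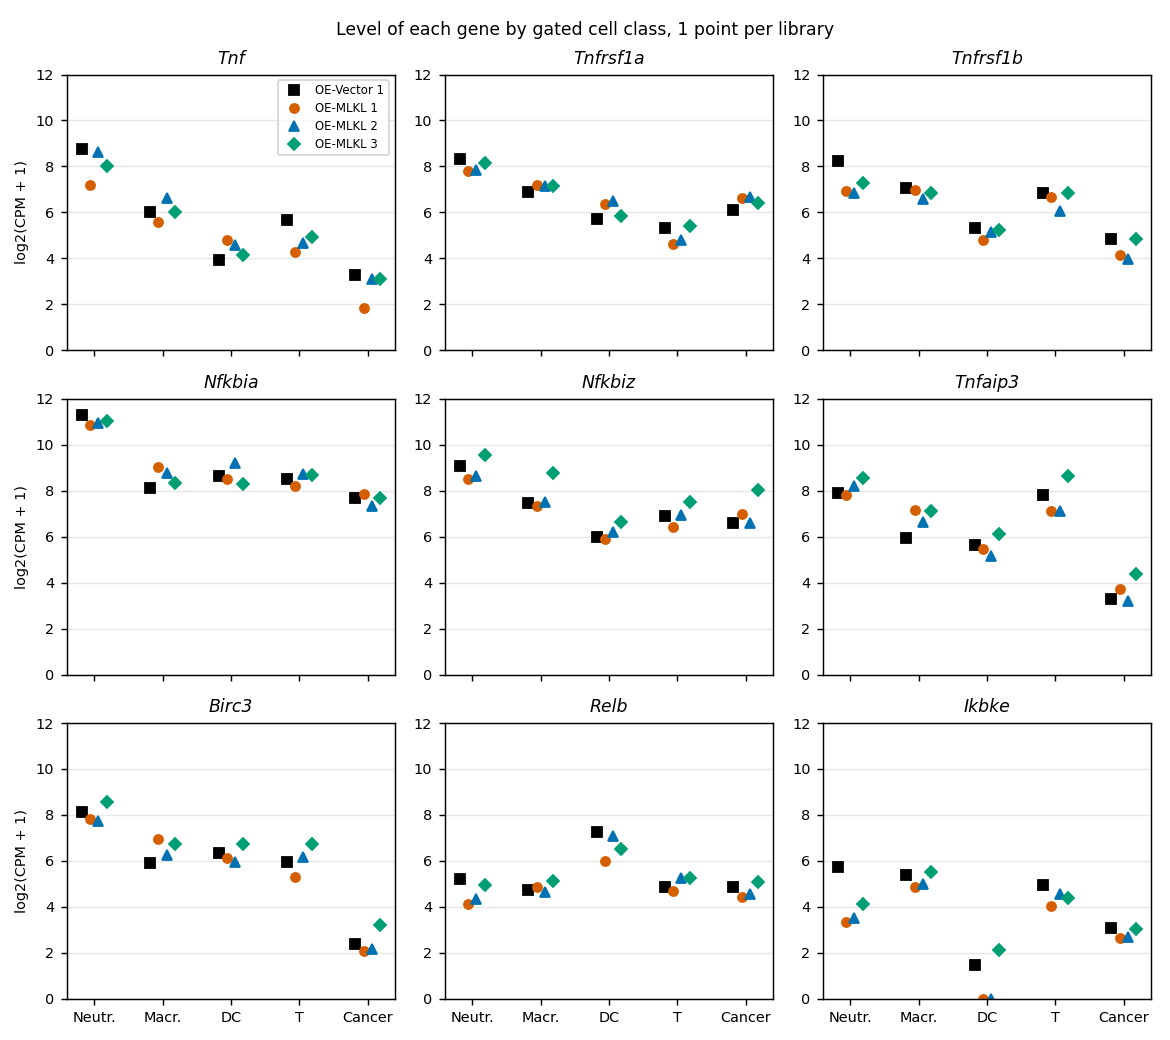
Level of each member as log2(CPM + 1) in the 5 cell classes, with 1 point per library and the library shown by colour and shape. By the mean of the libraries, neutrophils stand highest for 7 genes, dendritic cells for Relb (mean 109 CPM) and macrophages for Ikbke (mean 36.0 CPM).

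Tnf, the ligand gene, was a neutrophil transcript first and a macrophage transcript second. In neutrophils it stood at 438 CPM in OE-Vector 1 and at 144, 399 and 259.7 CPM in OE-MLKL 1, 2 and 3, a mean of 310.1 ± 135 (SD, n = 4). In macrophages the same libraries gave 63.1, 46.9, 97.8 and 64.2 CPM. Every library was higher in neutrophils, by 2.22 ± 0.22 (SE) on the log2 scale (adjusted p = 2.6e-08, edgeR). Macrophages exceeded T cells, at 30.6 ± 13.5 CPM, by 1.36 ± 0.23 (adjusted p = 4.1e-05). T cells and dendritic cells, at 20.3 ± 5.85 CPM, were not called different (adjusted p = 0.12). Cancer cells were lowest at 6.57 ± 2.76 CPM. Free RNA was read from barcodes of at most 100 UMIs, which carried 22.2 to 74.9 CPM of Tnf. The Tnf levels of T cells, dendritic cells and cancer cells lay within or below that range in every library, and those of macrophages overlapped it. Only the neutrophil level was clear of the free RNA in all 4 libraries. The share of free RNA in a cell was not estimated. Here and below, a level within or under the range of free RNA can still be the cell's own.

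The receptor genes differed in the order of the classes. Tnfrsf1a encodes TNFR1, the receptor with a death domain, and it was measured at 315, 222, 230.1 and 286 CPM in neutrophils of OE-Vector 1 and OE-MLKL 1, 2 and 3. Macrophages followed with 117, 146, 143 and 141 CPM, 1.08 ± 0.18 lower on the log2 scale (adjusted p = 3.2e-05, edgeR). Cancer cells (87.5 ± 15.3 CPM) were above dendritic cells (69.1 ± 18.3 CPM) in all 4 libraries, but the difference was not called (adjusted p = 0.20). T cells were lowest at 32.6 ± 8.60 CPM, below dendritic cells in all 4 libraries. In cancer cells the 4 libraries gave 66.9, 97.6, 101 and 84.9 CPM, each under the 110.4 to 115 CPM of the low-UMI barcodes. Dendritic cells (50.7 to 88.0 CPM) and T cells (23.7 to 41.1 CPM) were under that range in every library as well, so the order of these 3 classes lies below the free RNA.

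Tnfrsf1b encodes TNFR2, which lacks a death domain and signals through TRAF proteins. Its neutrophil level was 302 CPM in OE-Vector 1 against 119, 114 and 154 CPM in OE-MLKL 1, 2 and 3, so that OE-Vector 1 stood apart. Macrophages held 131, 126, 93.5 and 114 CPM and T cells 112, 99.7, 65.9 and 114 CPM, so both were close to each other in every library. The difference of 0.44 ± 0.19 between them only just passed (adjusted p = 0.047) and was lost under 8 of 9 other settings. Neutrophils exceeded macrophages by 0.62 ± 0.18 (adjusted p = 0.0055, edgeR), in 3 of 4 libraries. In OE-MLKL 1 macrophages were higher. Dendritic cells (34.4 ± 5.23 CPM) and cancer cells (21.8 ± 7.09 CPM) were lower, at or below the 37.1 to 83.5 CPM of low-UMI barcodes. In contrast to Tnfrsf1a, for which T cells came last, Tnfrsf1b was higher in T cells than in dendritic cells by 1.42 ± 0.25 on the log2 scale (adjusted p = 0.00012).

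Among the feedback genes, Nfkbia encodes IkappaB-alpha, which holds NF-kappaB in the cytoplasm and whose promoter is printed above. Neutrophils carried 2536 CPM in OE-Vector 1 and 1833, 1987 and 2126 CPM in OE-MLKL 1, 2 and 3. The other 4 classes lay between 159 and 582 CPM, so that neutrophils did not overlap with any of them. The gap to dendritic cells, the next class, was 2.57 ± 0.21 on the log2 scale (adjusted p = 3.9e-09, edgeR). Dendritic cells (416 ± 115 CPM), macrophages (389.6 ± 113) and T cells (375 ± 58.9) were not called different, with adjusted p of 0.95 and 0.37 between neighbours. Cancer cells (199.9 ± 30.8 CPM) were lower than T cells by 0.91 ± 0.20. The low-UMI barcodes held 273 to 409 CPM, a range that the levels of dendritic cells, macrophages and T cells overlapped. Only the neutrophil level lay wholly above that range.

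Nfkbiz encodes IkappaB-zeta, a nuclear IkappaB protein that is needed for a subset of NF-kappaB targets. It was at 542, 358, 396 and 754 CPM in neutrophils of OE-Vector 1 and OE-MLKL 1, 2 and 3, and at 176, 161, 180.1 and 434 CPM in macrophages. Cancer cells gave 94.5, 126, 95.1 and 263 CPM. In all of these classes OE-MLKL 3 stood above the other 3 libraries, as it also did in T cells (181 against 85.4 to 121 CPM), in dendritic cells (97.6 against 58.0 to 72.7 CPM) and in the low-UMI barcodes (266 against 113 to 164 CPM). Neutrophils exceeded macrophages by 1.31 ± 0.17 (adjusted p = 1.55e-06, edgeR), and cancer cells and T cells were not called different (adjusted p = 0.57). Cancer cells and dendritic cells were below or level with the low-UMI barcodes in every library, and T cells were below them in every library but OE-MLKL 2. The order of these classes is therefore not clear of the free RNA.

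Tnfaip3 encodes A20, the ubiquitin-editing enzyme that shuts down signalling from the TNF receptor complex. It was the member in which T cells came second to neutrophils. Neutrophils held 240.3, 224, 293 and 379 CPM in OE-Vector 1 and OE-MLKL 1, 2 and 3, and T cells 221, 138, 139 and 394 CPM. The neutrophil level was higher by 0.73 ± 0.20 (adjusted p = 0.0036, edgeR), in 3 of 4 libraries, and without OE-MLKL 2 the adjusted p was 0.059. Macrophages (109.6 ± 37.3 CPM) were above dendritic cells (48.6 ± 14.8), and cancer cells were far below all others at 12.2 ± 5.28 CPM, under the low-UMI barcodes at 44.3 to 98.6 CPM.

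Birc3 encodes cIAP2, a ubiquitin ligase that joins the TNF receptor complex and restrains cell death. Its neutrophil counts were 278, 226, 210.5 and 381 CPM in OE-Vector 1 and OE-MLKL 1, 2 and 3. Macrophages (90.5 ± 28.4 CPM), dendritic cells (78.6 ± 18.6) and T cells (69.1 ± 28.1) were not called different from their neighbours in the order, with adjusted p of 0.45 and 0.30. Macrophages were called higher than T cells by 0.62 ± 0.22 (adjusted p = 0.019, edgeR), a call that was lost without OE-MLKL 1. Cancer cells held 4.29, 3.20, 3.50 and 8.27 CPM, 3.88 ± 0.24 below T cells on the log2 scale (adjusted p = 1.1e-11, edgeR). For Tnfaip3 the step from cancer cells to the class above them was 2.22 ± 0.26, so both genes set cancer cells apart from leukocytes by more than Nfkbia did.

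Relb and Ikbke broke the pattern. Relb encodes the NF-kappaB subunit that pairs with p52 in the noncanonical pathway and is required for the development of some dendritic cells. It was at 150.4 CPM in dendritic cells of OE-Vector 1 and at 61.9, 134 and 89.8 CPM in those of OE-MLKL 1, 2 and 3. All other classes lay between 16.4 and 36.7 CPM, and dendritic cells exceeded T cells by 1.89 ± 0.24 (adjusted p = 3.3e-06, edgeR). T cells, macrophages, cancer cells and neutrophils were not called different from their neighbours in the order, at means of 31.5, 28.0, 26.2 and 25.7 CPM. With DESeq2 size factors neutrophils passed as higher than cancer cells (adjusted p = 0.031). The low-UMI barcodes held 23.2 to 29.0 CPM, a range that each of these classes overlapped, so their order is not read.

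Within dendritic cells, the Relb counts came mainly from cells with a Ccr7 UMI, a marker of mature dendritic cells. These held 490.2 CPM in OE-Vector 1 and 335, 391 and 509 CPM in OE-MLKL 1, 2 and 3. Cells with Xcr1 or Clec9a and no Ccr7 UMI, which mark the cross-presenting lineage, held 21.0, 16.8, 27.7 and 42.1 CPM, about the level of the other classes. The numbers were small, with 49, 8, 20 and 29 Ccr7-positive cells, whose share of dendritic cells ran from 15.4% to 45.5%.

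Ikbke encodes IKK-epsilon, an IKK-related kinase best known for interferon induction. Macrophages led with 40.4, 27.8, 31.0 and 44.5 CPM in OE-Vector 1 and OE-MLKL 1, 2 and 3. Neutrophils held 51.8, 9.14, 10.5 and 16.6 CPM in the same libraries, and T cells 29.9, 15.4, 22.2 and 20.2 CPM. Neutrophils were above T cells in 1 of 4 libraries, and the difference was not called (adjusted p = 0.60, edgeR). The low-UMI barcodes held 35.3, 14.5, 11.4 and 26.0 CPM, which macrophages exceeded in every library. Under these levels were neutrophils in each OE-MLKL library, T cells in OE-Vector 1 and OE-MLKL 3, and cancer cells in every library. OE-Vector 1 was the only library in which neutrophils were above macrophages. The difference of 0.75 ± 0.28 between these classes passed (adjusted p = 0.023, edgeR), but it was lost with DESeq2 size factors (adjusted p = 0.11) and when any OE-MLKL library was left out. Cancer cells held 6.34 ± 1.20 CPM. In dendritic cells only 2, 0, 0 and 6 UMIs were counted, and at 0 UMIs a 95% exact Poisson interval reaches 14.3 CPM in OE-MLKL 1 and 14.1 CPM in OE-MLKL 2, so low expression could not be told from none. Genes on the other strand, Gm28914 and Gm28913, overlap Ikbke (GENCODE vM21), whereas the other 8 members overlap no annotated gene.

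Genes whose level followed each member most closely over the 20 sums of a class in a library were found among 14529 genes by Pearson's r of log2(CPM + 1). The points share libraries and classes, and the values are a description. The closest to Tnf were 1600014C10Rik (r = 0.957), Ggt5 (0.953) and Nfkbid (0.947), the last of which encodes another nuclear IkappaB protein. Nfkbia was followed by Cdk2ap2 (0.961), Slfn1 (0.957) and Gadd45b (0.956), and Birc3 by Rgs2 (0.980), Apbb1ip (0.978) and Grk2 (0.978). For Tnfaip3 they were Cd37 (0.963), Emb (0.959) and Dennd1c (0.958), and for Nfkbiz they were Map3k5 (0.930), Ets2 (0.924) and Plk3 (0.920). The receptor Tnfrsf1a was followed by Hlx (0.960), Pfkfb4 (0.947) and Tnfaip2 (0.945), and Tnfrsf1b by Smap2 (0.942), Lcp2 (0.924) and Lilrb4a (0.914). Relb went with Aldh1a2 (0.937), Polb (0.926) and Zfp366 (0.924), the last a transcription factor gene of dendritic cells. Ikbke went with Rnf128 (0.923), Ctsd (0.912) and 1700017B05Rik (0.882). Among the members themselves the highest r was 0.89 between Tnfaip3 and Birc3, and the lowest was -0.61 between Relb and Ikbke.

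In neutrophils, cells with a Tnf UMI held most of the feedback transcripts more often than cells without one in all 4 libraries, although none of these comparisons passed its test. Every cell was thinned to 500 UMIs so that depth was equal, after which 5.37% to 14.5% of neutrophils had a Tnf UMI (8.70% to 24.2% unthinned), against 0.0280% to 0.627% of cancer cells (2.79% to 14.1% unthinned), whose median depth was 12328 to 25864 UMIs a cell against 742 to 1431 in neutrophils. Among neutrophils, Nfkbia was found in 73.1%, 60.8%, 69.2% and 68.7% of the Tnf-positive cells (OE-Vector 1, then OE-MLKL 1, 2 and 3), and in 45.1%, 49.8%, 49.1% and 50.6% of the Tnf-negative cells. The mean difference was 19.3 ± 6.99 percentage points (SD, n = 4), with no overlap between the 2 kinds of cell. An exact two-sided sign-flip permutation test over 4 libraries cannot go below p = 0.125, which it reached here (adjusted p = 0.44 over 32 comparisons).

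The same direction held in 4 of 4 libraries for 5 other members in neutrophils. Nfkbiz differed by 9.80 ± 2.32 points, Tnfaip3 by 9.25 ± 3.68, Birc3 by 3.27 ± 1.001, Tnfrsf1b by 2.59 ± 3.47 and Ikbke by 1.58 ± 2.12. Relb was higher in 3 of 4 libraries, by 0.79 ± 0.81 points. Tnfrsf1a, the gene of the receptor itself, was found in 11.95% of Tnf-positive and 11.97% of Tnf-negative neutrophils, a difference of -0.023 ± 0.63 points.

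Macrophages had 57 to 112 Tnf-positive cells a library, and no comparison passed in them either. Their Tnf level, in the order OE-Vector 1 and OE-MLKL 1 to 3, was 63.1, 46.9, 97.8 and 64.2 CPM beside 74.9, 22.2, 48.8 and 64.1 CPM in the low-UMI barcodes, so that in OE-Vector 1 and OE-MLKL 3 a Tnf UMI in a macrophage could not be told from free RNA, and the values that follow are a description. Tnfaip3 (4.32 ± 3.87 points) and Birc3 (1.60 ± 1.09) were higher in Tnf-positive macrophages of 4 of 4 libraries, and Nfkbia (9.59 ± 9.01), Nfkbiz (4.28 ± 3.53) and Tnfrsf1a (1.09 ± 2.67) in 3 of 4. Ikbke (0.46 ± 1.90) and Relb (-0.34 ± 1.02) were higher in 2 of 4, and Tnfrsf1b (-1.15 ± 1.84) in 1 of 4. In T cells 6 to 18 cells a library were Tnf-positive, 1.06% to 1.96% of them. Their Tnf level lay below that of the low-UMI barcodes in every library, so a Tnf UMI in a T cell could not be told from free RNA, which held Nfkbia as well. With that limit, the difference in T cells was 10.6 ± 7.05 points for Nfkbia, -0.80 ± 11.6 for Tnfaip3 and -2.13 ± 2.53 for Birc3, and nothing is read from it. The same limit holds for cancer cells. There, with 2 to 38 Tnf-positive cells a library, the values ran from -0.93 ± 4.10 points for Tnfrsf1a to 12.2 ± 21.0 for Nfkbia, and no member was higher in more than 3 of 4 libraries. Dendritic cells had at most 2 such cells and were not compared.

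**Figure D2:**
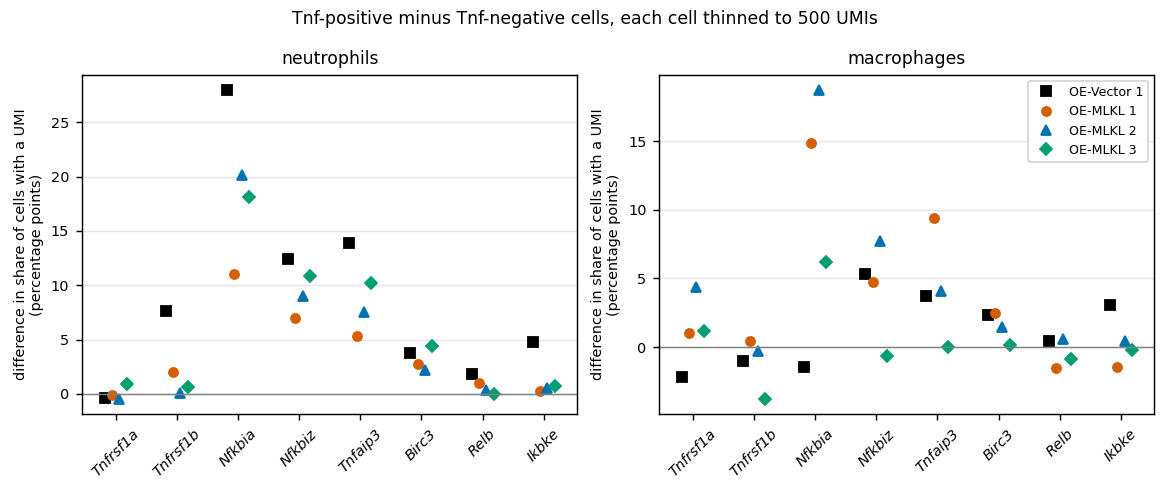
Percentage points by which the share of cells with a UMI of each member was higher in Tnf-positive than in Tnf-negative cells, all thinned to 500 UMIs, in neutrophils and in macrophages with 1 point per library. In OE-Vector 1 and OE-MLKL 3 the Tnf level of macrophages was below or level with the free RNA. In neutrophils Nfkbia lies farthest from 0 (mean 19.3 points) and Tnfrsf1a lies on 0.

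The design asks next whether members differed between OE-MLKL and OE-Vector tumours in each class. No member was called in any of the 5 classes by edgeR, over 44 tests adjusted across all genes, and Ikbke in dendritic cells was too low to test. With 1 OE-Vector library, all replicate spread came from the 3 OE-MLKL libraries and the OE-Vector library was assumed to vary like them, and an exact permutation of 1 against 3 cannot go below p = 0.25. In neutrophils 0% of 12966 genes passed, in macrophages 0.00721% (1 gene), in dendritic cells 0.165% (14 genes), in T cells 0.00857% (1 gene) and in cancer cells 0% of 17436 genes. DESeq2 called 79, 79, 0, 8 and 103 genes in the same order, among them 1 member, Ikbke in neutrophils.

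In neutrophils the difference pointed to lower levels in OE-MLKL for 8 of 9 members, with a median log2 fold change of -0.61 beside 0.04 over all genes tested. OE-Vector 1 stood above every OE-MLKL library in 6 members, as 15.8% of all genes did in CPM, a scale on which the median gene was 0.25 higher in OE-MLKL on the log2 scale. At an unadjusted p under 0.05 there were 3 of 9 members, beside 1062 of 12966 genes (8.19%). These were Ikbke, Tnfrsf1b and Relb, all with values below 0, and none of them passed the adjustment.

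Ikbke had the largest of these differences. Its neutrophil levels of 51.8 CPM in OE-Vector 1 and 9.14, 10.5 and 16.6 CPM in OE-MLKL 1, 2 and 3 rested on 431, 40, 76 and 177 UMIs, and the groups did not overlap. The low-UMI barcodes ordered the libraries much alike, at 35.3, 14.5, 11.4 and 26.0 CPM, so that only OE-Vector 1 had more Ikbke in neutrophils than in its free RNA. The log2 fold change was -2.35 ± 0.35 (adjusted p = 0.51, edgeR). It passed with DESeq2 (adjusted p = 0.0041), without the filter on low counts (0.043) and without OE-MLKL 3 (-2.62, adjusted p = 0.0016).

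Tnfrsf1b also separated in neutrophils, at 302 CPM in OE-Vector 1 and 114 to 154 CPM in OE-MLKL, each above the 83.5, 37.1, 37.8 and 60.2 CPM of the low-UMI barcodes of the same libraries. It gave a log2 fold change of -1.48 ± 0.31 (adjusted p = 0.55, edgeR). Relb, at 36.6 CPM against 16.4 to 30.4 CPM, gave -0.99 ± 0.37 (adjusted p = 0.60). Its low-UMI barcodes held 28.7, 23.2, 25.0 and 29.0 CPM, so that the neutrophil level was below the free RNA in OE-MLKL 1 and 2 and near it in OE-MLKL 3. Without OE-MLKL 3, the adjusted p of Tnfrsf1b was 0.0075 and that of Relb 0.016, and the number of genes called in neutrophils went from 0 to 1283, so these calls rest on which OE-MLKL libraries were used. For Tnf itself the value was -0.97 ± 0.53 (adjusted p = 0.66), and OE-MLKL 2 at 399 CPM lay close to OE-Vector 1 at 438 CPM. Tnfaip3 was the exception in neutrophils with 0.05 ± 0.39, its OE-Vector level lying inside the OE-MLKL range.

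**Figure D3:**
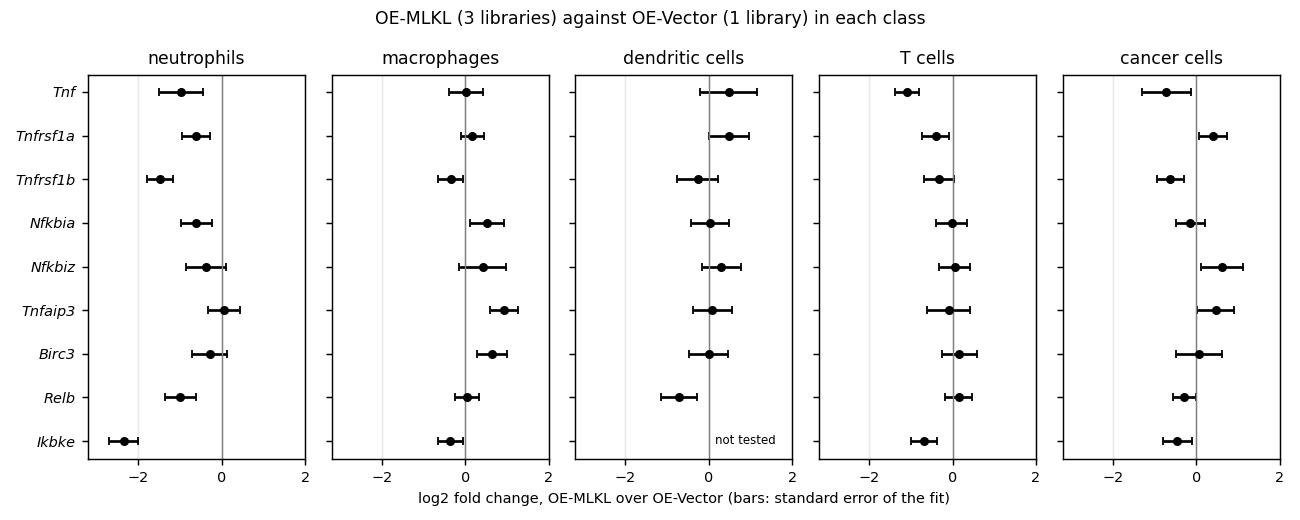
Difference between OE-MLKL and OE-Vector on the log2 scale for each member in the 5 classes, with bars of 1 SE from edgeR. The lowest value is Ikbke in neutrophils at -2.35, and no member passed an adjusted p of 0.05.

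Other measures of the neutrophils moved with these values. Cells with UMIs of both Ccl3 and Ccl4, chemokine genes that NF-kappaB induces, made up 26.0% of neutrophils in OE-Vector 1 against 3.01%, 4.95% and 15.4% in the OE-MLKL libraries 1, 2 and 3, at median depths of 1217, 742, 780 and 1431 UMIs a cell. Thinned to 500 UMIs, the shares were 18.4%, 2.12%, 3.39% and 7.87%, so OE-Vector 1 was again highest. The thinned shares in cancer cells were 0% to 0.662%, and their unthinned shares, at a far greater depth, 0.897% to 27.9%. The levels that follow are for neutrophils split on their unthinned counts. In neutrophils with neither a Ccl3 nor a Ccl4 UMI, Tnf stood at 203 CPM in OE-Vector 1, inside the OE-MLKL range of 122 to 331 CPM, and Nfkbia at 1869.6 CPM, inside 1782 to 1906. In the same cells Tnfrsf1b was still higher in OE-Vector 1, at 238 CPM against 102 to 134, whereas Ikbke, at 21.3 CPM against 9.77, 6.37 and 11.9, lay under the low-UMI barcodes of its own library in all 4 libraries. Tnfaip3 was lower there, at 182 CPM against 211 to 322.

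Among the neutrophils with both chemokines, Tnf was at 841 CPM in OE-Vector 1 and 354, 748 and 419.7 CPM in OE-MLKL, Tnfrsf1b at 439 against 155 to 195 CPM, and Ikbke at 106 against 18.6, 47.0 and 27.0 CPM, the lowest of which rested on 3 UMIs. These cells thus carried more Tnf than the cells with neither chemokine in all 4 libraries. OE-Vector 1 was highest for Tnfrsf1b in both kinds of neutrophil, and for Ikbke the order in cells with neither could not be told from that of the free RNA. The 5 genes used as monocyte markers (Ly6c2, Ccr2, Vcan, Chil3 and Plac8) summed to 496 CPM in neutrophils of OE-Vector 1. In OE-MLKL they summed to between 2861 and 8912 CPM, with none at 0. In every library the sum was above that of macrophages (362 to 1221 CPM). Which gene carried it was not examined, and it is not read as a share of monocytes. The part of either measure in the differences of the members was not tested.

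**Figure D4:**
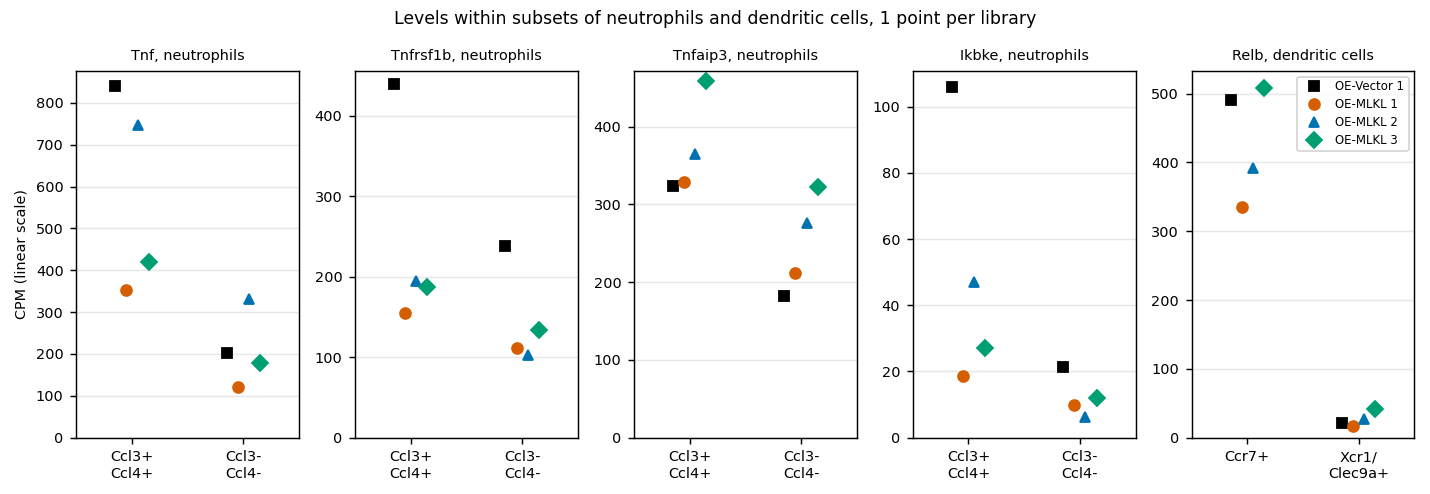
Level in CPM (linear axes from 0) of 4 members in neutrophils with UMIs of both Ccl3 and Ccl4 or of neither, and of Relb in Ccr7-positive and in Xcr1- or Clec9a-positive dendritic cells, with 1 point per library. Tnfrsf1b is highest in OE-Vector 1 in both kinds of cell, Ikbke of OE-Vector 1 in cells with neither (21.3 CPM) is under the free RNA of that library (35.3 CPM), and Tnf of OE-Vector 1 (203 CPM) lies inside the OE-MLKL range in cells with neither.

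In macrophages the members leaned the other way, with 7 of 9 above 0 and a median of 0.17 beside 0.04 over all genes. OE-Vector 1 lay below every OE-MLKL library in 4 members, as 37.1% of all genes did, so this share was near the background. Tnfaip3 was the 1 member at an unadjusted p under 0.05, beside 844 of 13866 genes (6.09%) and no member by DESeq2. It was at 61.2 CPM in OE-Vector 1 and 140.0, 99.3 and 138 CPM in OE-MLKL, a log2 fold change of 0.92 ± 0.33 (adjusted p = 0.79, edgeR). The OE-Vector 1 level was about that of the low-UMI barcodes of the library, 59.6 CPM, and the OE-MLKL levels were above their 44.3, 47.5 and 98.6 CPM. Nfkbia, at 276 against 523, 442 and 318 CPM, gave 0.52 ± 0.41, with the OE-Vector 1 level below the 409 CPM of the low-UMI barcodes of that library, and Birc3, at 59.3 against 122, 75.3 and 106 CPM, gave 0.65 ± 0.36. Dissociation stress genes and monocyte markers moved with these values. The 15 stress genes summed to 5541 CPM in macrophages of OE-Vector 1 and to 9701, 8101 and 10536 CPM in OE-MLKL 1, 2 and 3. The 5 monocyte markers summed to 362 CPM beside 1221, 993 and 388 CPM, with none at 0 and in the library order of Nfkbia. The part of either was not tested.

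In T cells, Tnf was at 49.8 CPM in OE-Vector 1 and 18.6, 24.6 and 29.5 CPM in OE-MLKL, with no overlap and a log2 fold change of -1.10 ± 0.29 (adjusted p = 0.81, edgeR). It was the 1 member of 9 at an unadjusted p under 0.05, beside 606 of 11668 genes (5.19%), and DESeq2 called none. Without OE-MLKL 3 it passed at -1.16 (adjusted p = 0.0022), and the number of genes called went from 1 to 724. OE-Vector 1 stood above every OE-MLKL library in 2 members, as 17.8% of all genes tested in T cells did, so the lack of overlap was no mark of Tnf. In Cd8a-positive T cells the Tnf level of OE-Vector 1, 24.0 CPM, lay inside the OE-MLKL range of 16.5 to 25.6, while in T cells with Cd4 and neither Cd8a nor Foxp3 it was 74.2 CPM against 18.0 to 50.2. The widest gap was in T cells with no UMI of Cd4, Cd8a or Foxp3, at 126 CPM in OE-Vector 1 against 13.3, 30.2 and 32.8 CPM, where 210 cells held 87 Tnf UMIs in OE-Vector 1. The 5 NK cell markers summed to 3324 CPM in T cells of OE-Vector 1 and to 367, 657 and 1617 CPM in OE-MLKL 1, 2 and 3, with none at 0. They include Gzma, which averaged 1429 CPM over the libraries and was the gene that most set T cells apart from the other classes. The sum is therefore not read as NK cells. Tnf in the low-UMI barcodes was likewise highest in OE-Vector 1, at 74.9 CPM against 22.2, 48.8 and 64.1, and it was above the T cell level in every library. The part of either was not tested. The next in T cells was Ikbke at -0.69 ± 0.32 (adjusted p = 0.94).

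Cancer cells had no member at an unadjusted p under 0.05, beside 813 of 17436 genes (4.66%), and none called by DESeq2. Tnf was at 8.74 CPM in OE-Vector 1 and 2.53, 7.46 and 7.53 CPM in OE-MLKL, or -0.71 ± 0.58. Tnfrsf1a, the receptor gene, was at 66.9 CPM against 84.9 to 101 CPM, or 0.40 ± 0.33, and Tnfrsf1b at 27.7 against 14.7 to 28.1 CPM, or -0.62 ± 0.33. Tnf, Tnfrsf1a and Tnfrsf1b were each under the low-UMI barcodes of the same library in every library. Tnf in those barcodes was likewise highest in OE-Vector 1 and lowest in OE-MLKL 1. The part of free RNA in these values was not tested. Dendritic cells likewise had no member at an unadjusted p under 0.05 of the 8 tested, beside 364 of 8474 genes (4.3%), and no gene passed with DESeq2. Relb gave the largest value there, -0.72 ± 0.44 (adjusted p = 1), with only 44 and 45 cells in OE-MLKL 2 and 1. The Ccr7-positive share of dendritic cells was 42.2% in OE-Vector 1, beside 17.8%, 45.5% and 15.4% for OE-MLKL 1, 2 and 3. Within the Ccr7-positive cells the Relb level of OE-Vector 1 lay inside the OE-MLKL range. The part of this share in the Relb value was not tested.

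The wider pathway was described with lists of genes, of which none had a member called in any class. Of 24 NF-kappaB target genes tested in neutrophils, 24 were below 0, with a median log2 fold change of -0.86 and 6 at an unadjusted p under 0.05, beside 47.1% of all 12966 genes below 0 and 8.19% at an unadjusted p under 0.05. Their leading gene was the chemokine gene Ccl3, at 3032 CPM in OE-Vector 1 against 469.8, 620.0 and 908 CPM in OE-MLKL, or -2.45 ± 0.42 (adjusted p = 0.55, edgeR). Of 11 subunits and inhibitors, 10 were below 0 in neutrophils (median -0.51), led by Tnip1, the partner of A20, at -1.41 ± 0.31 (adjusted p = 0.55). Of 13 upstream ligands and receptors, 11 were below 0 (median -0.49), led by Tlr4 at -1.35 ± 0.39. The 25 genes of the TNF receptor complex and IKK kinases were nearer to all genes (median -0.10), led by Traf1 at -1.18 ± 0.47. The 15 dissociation stress genes had a median of -0.35 there, led by Hspa1b at -1.38 ± 0.31. The lists were chosen with earlier results of these data known, so these counts are a description. The target list holds Ccl3 and Ccl4, which define the neutrophil subset above. It also shares Nfkb2, Traf1 and Cd40 with other lists, so the lists are not separate results.

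The target genes had a median of -0.22 in macrophages, -0.35 in dendritic cells, -0.09 in T cells and -0.53 in cancer cells. In macrophages their leading gene was Nos2, the inducible nitric oxide synthase, at 61.5 CPM in OE-Vector 1 and 6.56, 6.12 and 11.4 CPM in OE-MLKL (-3.06 ± 0.34, adjusted p = 0.091). In dendritic cells it was Ccl3, at 89.9 CPM against 0, 15.3 and 32.3 CPM (adjusted p = 0.056), in cancer cells again Ccl3, at 49.9 CPM against 7.25, 11.9 and 22.8 CPM, and in T cells Cxcl2 (-1.02 ± 0.33). Ccl3 in the low-UMI barcodes was at 489 CPM in OE-Vector 1 and 77.8, 111 and 219 CPM in OE-MLKL, above dendritic cells and cancer cells in every library and ordered much as in cancer cells, and Cxcl2 there, at 669 to 1544 CPM, was likewise above T cells in every library. Neither could be told from free RNA in those classes, whereas Nos2 in macrophages was above its 17.1, 3.84, 4.81 and 3.16 CPM. The remaining lists had medians from -0.35 to 0.29 in these 4 classes, apart from the stress genes at 0.75 in macrophages and 0.60 in cancer cells. Their leading genes were Map3k7 (0.45), Bcl3 (0.51), Ltb (-1.04) and Hspa1b (-2.55) in macrophages, Birc2 (-1.06), Tnip3 (-0.90), Ltb (-1.12) and Hsp90aa1 (-1.33) in dendritic cells, Casp8 (-0.60), Rel (0.82), Ltb (-0.87) and Hspa1a (-3.81) in T cells, and Casp8 (-0.46), Tnip2 (0.72), Traf6 (0.57) and Fosl1 (0.81) in cancer cells, none of which passed.

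Whether the group difference itself differed between classes was tested for each member and pair of classes. Of 90 tests, 26 had an unadjusted p under 0.05, or 28.9%, beside 4.77% to 10.5% of all 13823 genes in the 10 pairs, and 1 passed, while DESeq2 called 3, all of them Ikbke. Of the 26, 20 fell in the 4 pairs with neutrophils, 9 of them in neutrophils against macrophages, and 6 in the other 6 pairs. Without the 4 tests of Ikbke that involve dendritic cells, in which it was too low to test, the count was 25 of 86. The tests reuse the same neutrophil sums and the same OE-Vector library, so they are not 90 separate results. The group difference of Ikbke in neutrophils minus that in cancer cells was -1.95 ± 0.35 on the log2 scale (adjusted p = 0.043, edgeR), a pair in which 0.13% of all 13823 genes passed. Beside that, Ikbke in cancer cells was at 7.50 CPM in OE-Vector 1 and 5.18 to 7.25 CPM in OE-MLKL. Each level was below the low-UMI barcodes of its library, at 35.3, 14.5, 11.4 and 26.0 CPM in OE-Vector 1 and OE-MLKL 1, 2 and 3. The call was lost without OE-MLKL 1 (adjusted p = 0.14) and without OE-MLKL 2 (0.64). Against macrophages Ikbke gave -1.98 ± 0.35 (adjusted p = 0.086, 0.0289% of all genes called), and against T cells -1.65 ± 0.38 (adjusted p = 0.18, 0.0289%). Against dendritic cells, where 0% of all genes passed, Ikbke is not read because its counts there are too low. No member passed in the other 6 pairs, where the share of all genes called was 0% between macrophages and dendritic cells, 0.0145% between macrophages and T cells, 0.0362% between macrophages and cancer cells, 0% between dendritic cells and T cells, 0.00723% between dendritic cells and cancer cells and 0% between T cells and cancer cells.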

How the data were processed

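Single-cell 3' RNA libraries of 4 orthotopic tumours were used (OE-Vector 1, OE-MLKL 1 to 3). Deposited by the authors were UMI counts for all barcodes without filter or normalisation, and the submitters' notes name Cell Ranger 2.1.1 and mm10. Other versions stand in the file headers and in the methods, and whether intronic reads were counted is not given in the sources used here.

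Barcodes with at least 500 UMIs, over 200 genes, under 10% mitochondrial and at most 5% haemoglobin UMIs were kept as cells. A cell entered a class when it held at least 2 markers at 1.5% of its UMIs (neutrophils), 3 at 1% (macrophages), 2 at 0.03% (dendritic cells) or 3 at 0.1% (T cells and cancer cells). Cells that passed several gates, 3.42% to 5.41% of cells in a library, were left out in place of a doublet caller. The markers held no member gene, and the thresholds were set after the data had been seen. The members and gene lists were chosen with earlier results of these data known.

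Counts were added up over the cells of a class in a library and tested with edgeR 4.0.16 (limma 3.58.1, R 4.3.3; filterByExpr, TMM scaling, quasi-likelihood test, Benjamini-Hochberg adjustment over all genes, called under 0.05). Group differences were fitted per class, and class differences and class by group interactions over all sums with library as a block. DESeq2 1.42.0 was an alternative, as were other size factors, filters, gates and left-out libraries. Thinned shares were compared in Python 3.11.15 with scipy 1.17.1. The edgeR fits were tested on simulated counts, and the sign-flip test on set differences with a known answer. The study's methods give 1 library per tumour with 3 tumours in each group, and count intervals cover counting error only.

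All 9 members are described in each class. From each pathway list the 3 largest called genes per class were to be named, or, where none was called, the gene with the smallest unadjusted p. The 3 genes with the highest correlation to each member were taken from genes with at least 200 UMIs.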

Additional observations from a re-analysis of the deposited data

Results flagged for a closer look

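The difference between OE-MLKL and OE-Vector in Ikbke, which encodes the kinase IKK-epsilon, was flagged as not the same in neutrophils and cancer cells. On the log2 scale it was lower in neutrophils than in cancer cells by the interaction term of edgeR, -1.95 ± 0.35 (adjusted p = 0.043). The neutrophil counts behind it were 431 UMIs in OE-Vector 1 and 40, 76 and 177 UMIs in OE-MLKL 1, 2 and 3, and the single OE-Vector library decides its direction. Without OE-MLKL 1 or without OE-MLKL 2 the term no longer passed. Ikbke in low-UMI barcodes was also highest in OE-Vector 1, at 35.3 CPM against 14.5, 11.4 and 26.0 CPM in OE-MLKL 1, 2 and 3. Cancer cells were below these levels in every library, at 7.50, 5.18, 5.45 and 7.25 CPM. Neutrophils were below them in each OE-MLKL library, at 9.14, 10.5 and 16.6 CPM. The part of free RNA in the difference was not tested.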

How the results depend on the processing

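No paired analysis was possible because the groups share only replicate number 1 among the libraries used here. Members called between OE-MLKL and OE-Vector numbered 0 in every class, apart from 1 in neutrophils with DESeq2 and 1 without the filter on low counts, and 0 to 3 in neutrophils and 0 to 1 in T cells when an OE-MLKL library was left out. Genes called over the whole table depended far more on the setting. In neutrophils they numbered 79 with DESeq2, 11 without the filter and 1 to 1283 with a library left out. In macrophages they numbered 79, 19 and 4 to 866, in dendritic cells 0, 40 and 0 to 82, and in T cells 8, 75 and 5 to 724, with 0 in T cells without the 5% of cells with most UMIs. In cancer cells they numbered 103 with DESeq2 and 67 to 566 with a library left out. The highest count came without OE-MLKL 3 in each class, and the cause was not tested. Interaction calls numbered 3 with DESeq2, 2 with DESeq2 size factors in edgeR, 4 without the filter and 0 to 14 with a library left out, beside 1. Class differences of the members stayed between 68 and 74 called of 90, with 0 of the 74 changed in sign.

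Of 395 other values of the 44 group differences, 20 turned sign, in 12 members and classes whose value was at most 0.41 in size, and none of these was called. Without the filter, Tnf in macrophages gave -0.00027 and Nfkbia in dendritic cells -0.016. Without the 5% of cells with most UMIs, dendritic cells gave -0.14 for Nfkbia and -0.0079 for Tnfaip3, and with 1 more marker in each gate 0.092 for Birc3. With an OE-MLKL library left out, macrophages ranged from -0.32 to 0.22 for Tnf, from -0.12 to 0.64 for Nfkbiz and from -0.062 to 0.14 for Relb. Dendritic cells ranged from -0.27 to 0.27 for Nfkbia, from -0.29 to 0.21 for Tnfaip3 and from -0.25 to 0.10 for Birc3. T cells ranged from -0.16 to 0.078 for Nfkbia, from -0.15 to 0.23 for Nfkbiz, from -0.63 to 0.12 for Tnfaip3 and from -0.10 to 0.42 for Birc3. Tnfaip3 in neutrophils ranged from -0.13 to 0.20 and Birc3 in cancer cells from -0.37 to 0.25. Among Tnf-positive against Tnf-negative cells, Relb in macrophages turned to 1.04 points when thinned to 1000 UMIs and ranged from -0.65 to 0.047 with a library left out, Ikbke in macrophages from -0.40 to 1.096 and Tnfrsf1a in neutrophils from -0.33 to 0.12.

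One OE-Vector library limits every group difference to a comparison with that tumour. In dendritic cells 44 to 188 cells a library leave Tnf and Ikbke near the limit of counting.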
